A study of Mus musculus with 12 samples.

Results

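Aminoacyl-tRNA synthetases are the enzymes that join each amino acid to its own tRNA, so every codon read by a ribosome depends on them. Most amino acids have a pair of nuclear genes, with an enzyme for the cytosol and a separate enzyme, made in the cytosol and imported, for the mitochondrion. In many cell types, the transcription factor ATF4 raises the genes of the cytosolic forms when amino acids are short or when the integrated stress response slows translation.

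The synthetase genes were taken from the gene table of the series by symbol, as a letter for the amino acid followed by ars with or without a final 1 or 2, together with Farsa, Farsb, Eprs and Tarsl2. This rule found 38 genes among 20620 gene rows and used no measured value. By known function, 19 of them encode cytosolic enzymes, 17 encode mitochondrial enzymes, and 2, Gars and Kars, supply both compartments. By protein fold, 18 belong to class I and 19 to class II, and Eprs joins a domain of each class.

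RNA and ribosome footprints were measured in whole testes of C57BL/6 mice at postnatal day 16. The 12 libraries were 3 of RNA and 3 of footprints from Mael+/- testes, which kept a working copy of Mael, and 3 of each from Mael-/- testes, which lack Maelstrom, a protein of the germ-cell defence against transposons. All testes were collected in cycloheximide, which stalls ribosomes on mRNA, and RNA and footprint libraries were made from aliquots of the same extracts. The study asked whether the mutation, which frees the retrotransposon LINE-1, disturbs translation, so the charging enzymes are examined here as part of that machinery. The control is itself heterozygous for the mutation, so no library is from testes with 2 intact copies of Mael. Whole testis mixes germ and somatic cells, and fewer cells of a type cannot be told apart from less RNA per cell. The sources used here give no batch or date and do not say how many animals went into an extract.

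Mael itself had 5045, 4314 and 3800 RNA counts in the Mael+/- libraries and 1, 2 and 0 in the Mael-/- libraries. The footprint counts of Mael were 1294, 660 and 863 against 0, 0 and 7. Gene counts summed to between 13697267 and 27462358 per RNA library and between 7609932 and 13233565 per footprint library, and the 38 synthetase genes took 0.342 to 0.385% of them in RNA and 0.404 to 0.421% in footprints. The Mael+/- extract of replicate 1 stood apart: the median of 11 pachytene spermatocyte markers lay 1.41 above its 6-library mean on the log2 scale in that RNA library and between 0.51 below and 0.02 below it in the other 5. All marker lists of spermatogonia, meiotic, Sertoli, Leydig, peritubular and macrophage cells were detected, with no gene of them at 0 in every library.

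Levels are given as CPM, the counts scaled to a common library size with TMM factors, per kilobase of mRNA for RNA and per kilobase of coding sequence for footprints, so that genes of different length can be set side by side. The cytosolic synthetases were the more abundant set. Their median RNA level was 42.6 CPM per kilobase, with library values from 40.2 to 46.3, and that of the mitochondrial synthetases was 12.2, with library values from 11.1 to 13.8. The median over 13396 genes tested in both assays and given a length was 12.9. The ratio of the cytosolic to the mitochondrial median was 3.51 ± 0.271 (SD, n = 6 libraries), between 3.06 and 3.82. The libraries of the genotypes overlapped in it, with 3.50, 3.06 and 3.51 in Mael+/- and 3.76, 3.82 and 3.44 in Mael-/- testes.

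Ribosome footprints showed a similar distance between the sets. The median footprint density was 69.7 CPM per kilobase for cytosolic and 19.7 for mitochondrial synthetases, beside 23.9 for all the genes with a length. Their ratio was 3.55 ± 0.287 (SD, n = 6 libraries). The cytosolic median lay above the median of all genes in every library on both scales. The mitochondrial median lay below it in every footprint library. In RNA the mitochondrial median was near that of all genes. It was above it in Mael+/- replicate 2, at 13.8 against 12.6, and in Mael-/- replicate 3, at 12.9 against 12.7. In the other RNA libraries it was below.

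**Figure D1:**
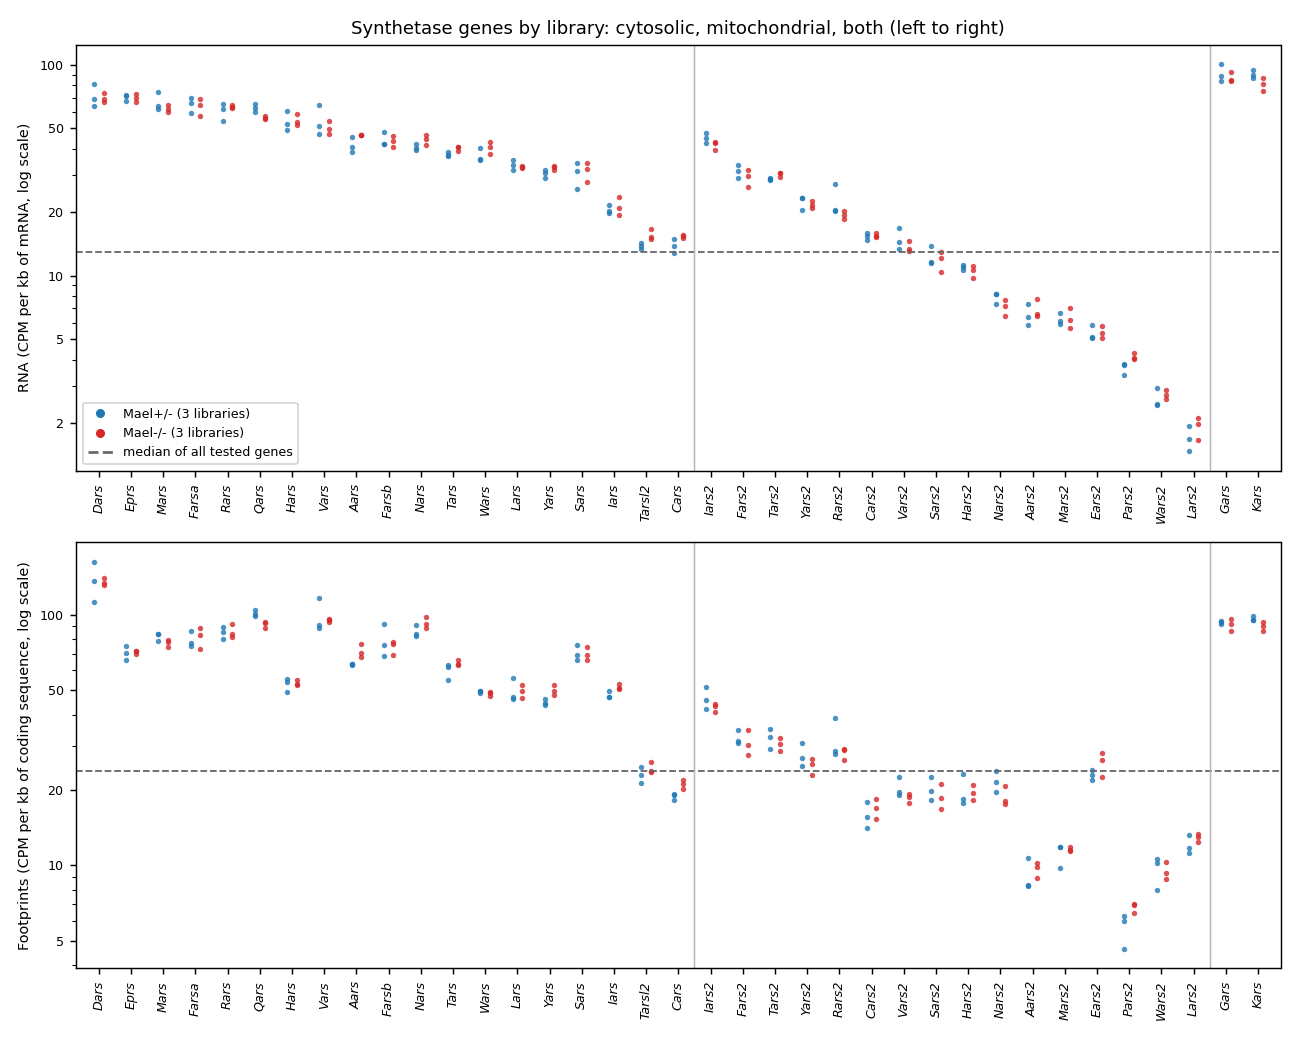
Level of the synthetase genes in each library on log axes, as RNA per kilobase of mRNA (top) and footprints per kilobase of coding sequence (bottom). Each point is 1 library, coloured by genotype, and the dashed line is the median of all tested genes. Library values of Gars and Kars, at the right, sit at 74.8 to 101 in RNA. Means of mitochondrial genes over their libraries run from 43.3 for Iars2 down to 1.81 for Lars2.

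The genes that serve both compartments were the most abundant in RNA. Gars, the glycyl-tRNA synthetase, had RNA levels of 84.3, 101 and 88.6 CPM per kilobase in Mael+/- and 85.2, 84.3 and 92.8 in Mael-/- libraries. Kars, the lysyl-tRNA synthetase, had RNA levels of 89.1, 94.3 and 86.9 against 74.8, 80.8 and 86.7. Gars overlapped between the genotypes, and every Kars value in Mael-/- testes was below every Mael+/- value, by a narrow margin. In footprint density the 2 genes were close to each other, with means of 92.5 for Gars and 93.3 for Kars.

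Among the cytosolic enzymes, Dars, which charges aspartate, and Eprs, which charges both glutamate and proline, had the highest RNA levels. Dars had RNA levels of 81.6, 64.0 and 68.9 CPM per kilobase in Mael+/- and 69.2, 73.5 and 66.9 in Mael-/- libraries. Eprs had RNA levels of 67.6, 72.1 and 71.4 against 66.6, 69.9 and 73.1. The replicate 1 library of Mael+/- testes gave the highest Dars value and the lowest Mael+/- value of Eprs, and the genotypes overlapped for both genes. In footprint density Dars led all 38 genes, with a mean of 136 and values of 163, 113 and 136 in Mael+/- and 140, 132 and 134 in Mael-/- libraries, while Eprs had a mean of 70.8.

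The lowest cytosolic RNA levels were those of Cars, which charges cysteine, and Tarsl2, a second cytosolic threonyl-tRNA synthetase. Cars had RNA levels of 13.8, 15.0 and 12.8 CPM per kilobase in Mael+/- and 15.5, 15.1 and 15.6 in Mael-/- libraries. Tarsl2 had RNA levels of 14.3, 13.8 and 13.4 against 16.6, 15.0 and 15.3. Both were slightly higher in every Mael-/- library than in any Mael+/- library, and neither passed a test, as given further on. Threonine is thus served by 3 genes of unequal level. Tars, the main cytosolic enzyme, had RNA levels of 36.9, 37.5 and 38.6 against 40.6, 39.0 and 41.0 in Mael-/- testes. Tars2, the mitochondrial enzyme, had 29.0, 28.4 and 28.7 against 29.3, 30.8 and 30.7. Tars exceeded Tarsl2 by 2.65 ± 0.147-fold (SD, n = 6 libraries), and Tarsl2 was below the mitochondrial Tars2 in 6 of 6 libraries, at a ratio of 0.5 ± 0.0352.

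The cytosolic phenylalanyl-tRNA synthetase is built from Farsa and Farsb subunits in equal number, whereas the mitochondrial enzyme Fars2 works as a monomer. Farsa had RNA levels of 59.3, 69.6 and 66.3 CPM per kilobase in Mael+/- and 57.1, 64.4 and 68.7 in Mael-/- libraries. Farsb had RNA levels of 47.9, 42.2 and 42.3 against 40.9, 45.8 and 43.8. RNA of Farsa exceeded that of Farsb by 1.47 ± 0.151-fold and in 6 of 6 libraries. At the level of footprint density the subunits were nearly equal, with a ratio of 1.06 ± 0.116 (SD, n = 6 libraries) that was below 1 in the Mael+/- library of replicate 1, at 0.840. Exons of Farsb share 265 bases with those of Sgpp2 on the opposite strand, and the strand setting of the counting is not given in the sources used here.

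Many cytosolic synthetases sit in the multisynthetase complex, a particle that holds several enzymes on a protein scaffold. The 8 genes of this complex, which are Dars, Eprs, Iars, Kars, Lars, Mars, Qars and Rars, had a median RNA level of 62.9 CPM per kilobase, against 41.0 for the 12 cytosolic genes outside it. The median footprint densities were 82.6 and 64.4. Within the complex the RNA level was uneven, from 85.4 for Kars to 33.2 for Lars and 20.9 for Iars. The value of Iars is uncertain, because 61.7% of its mRNA matches a locus at chr1:19330921-19333668 (GRCm38), annotated as the pseudogene Gm4849, at 95.7 to 96.4% identity, and 21.2% of the 30-base windows of its coding sequence occur there unchanged. How reads with such matches were treated is not given in the sources used here.

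As a fold between the highest and the lowest gene, RNA of the mitochondrial enzymes spread more widely, from 1.81 to 43.3 CPM per kilobase, than that of the cytosolic ones, from 14.6 to 70.7. In footprint density the ranges were 6.22 to 44.5 and 20.0 to 136. Iars2, which charges isoleucine, had RNA levels of 45.1, 47.4 and 42.4 CPM per kilobase in Mael+/- and 42.9, 39.4 and 42.7 in Mael-/- libraries and a mean of 43.3, beside the cytosolic median of 42.6. Fars2 followed with 31.3, 33.6 and 29.0 against 26.4, 29.7 and 31.8. Both overlapped between the genotypes. Exons of Iars2 share 105 bases with those of Rab3gap2 on the opposite strand.

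At the other end stood Wars2, for tryptophan, and Lars2, for leucine. Wars2 had RNA levels of 2.45, 2.46 and 2.93 CPM per kilobase in Mael+/- and 2.72, 2.86 and 2.59 in Mael-/- libraries. Lars2 had RNA levels of 1.68, 1.94 and 1.47 against 1.99, 1.66 and 2.12. No genotype stood above the other in these genes, and they rest on few reads: the lowest RNA count of a synthetase gene, 116, was that of Lars2, and the lowest footprint count, 67, that of Wars2. In footprint density the lowest gene was another, Pars2, which charges proline, with a mean of 6.22 CPM per kilobase.

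For 14 amino acids the cytosolic and the mitochondrial gene share a letter and can be compared directly within each library. RNA of the cytosolic gene was higher in 6 of 6 libraries for 12 of these pairs, with a median ratio of 4.14 over all 14. The ratio was largest for leucine, where Lars exceeded Lars2 by 18.6 ± 2.68-fold, and for tryptophan, where Wars exceeded Wars2 by 14.6 ± 1.53-fold (SD, n = 6 libraries). RNA levels of Wars were 35.8, 40.5 and 35.5 CPM per kilobase in Mael+/- and 37.7, 43.3 and 40.6 in Mael-/- libraries. The remaining 2 pairs, for isoleucine and cysteine, had the mitochondrial RNA higher in all 6 libraries. The ratio was 0.484 ± 0.0377 for Iars over Iars2, where the level of Iars is uncertain as described above, and 0.945 ± 0.0641 for Cars over Cars2.

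Footprint densities narrowed the widest of these pairs. Footprint density was higher for the cytosolic gene in 6 of 6 libraries for 13 of 14 pairs, and for isoleucine in 5 of 6, with a ratio of 1.12 ± 0.105. For leucine the ratio of footprint densities was 3.99 ± 0.307 and for tryptophan 5.19 ± 0.626, each below the ratio in RNA. The RNA level of Wars2 per kilobase rests on an annotated mRNA with 3296 bases after the stop codon. As footprint CPM over RNA CPM, which uses no lengths, means were 0.993 for Wars and 0.884 for Wars2. On that scale the tryptophan pair did not narrow. Means were 1.36 for Lars and 4.46 for Lars2, so the leucine pair narrowed without lengths as well. The median ratio of footprint densities over the pairs, 3.80, was close to that in RNA. For cysteine the order turned, with a footprint ratio of 1.23 ± 0.146 that was above 1 in every library.

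Mitochondria charge glutamine without an enzyme of their own: Ears2 loads glutamate on the glutamine tRNA, and an amidotransferase then converts it. The rule found no mitochondrial Qars gene. The cytosolic Qars had RNA levels of 59.8, 64.9 and 62.8 CPM per kilobase in Mael+/- and 55.5, 57.4 and 55.7 in Mael-/- libraries. Each Mael-/- value of Qars lay below each Mael+/- value. RNA of Ears2 per kilobase was lower than that of Eprs in every library, by 13.1 ± 0.594-fold, and footprint density by 2.94 ± 0.331-fold (SD, n = 6 libraries). These ratios rest on lengths, and the annotated mRNA of Ears2 has 4913 bases after the stop codon. Without lengths, mean RNA was 346 CPM for Eprs and 35.1 for Ears2. Mean footprints were 323 and 38.3 CPM, so the gap was similar in both readouts. Of the amidotransferase and formyltransferase genes, 4 were tested, Qrsl1, Gatc, Mtfmt and Pet112, the older symbol of Gatb. Their summed RNA was 103 to 112 CPM in Mael+/- and 103 to 110 in Mael-/- libraries.

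The number of footprints per RNA describes how densely the mRNA of a gene was occupied by ribosomes. It was computed in each extract as footprint density over RNA density. The median over the 38 genes was 1.49, with extracts from 1.39 to 1.58, and the median over all genes with a length was 1.77. Without the lengths, as footprint CPM over RNA CPM, the synthetases had a median of 1.08 and all genes 0.941. The synthetases were below the median gene on the first scale and above it on the second. The scales differ by the ratio of mRNA to coding length alone, so no order relative to other genes is read from them. The cytosolic median was 1.54 and the mitochondrial 1.43, a ratio of 1.08 ± 0.0742 (SD, n = 6 extracts) that was below 1 in the Mael+/- extract of replicate 2. With the longest annotated transcript of each gene in place of the one with the longest coding sequence, the ratio was 0.931, so its side of 1 depends on the transcript chosen. For the mitochondrial genes Aars2, Hars2 and Tars2 that transcript has a shorter coding sequence, of 1863, 999 and 1272 bases against 2943, 1518 and 2172. Of the cytosolic genes only Wars changed, to an mRNA of 2831 bases against 1842 and a coding sequence of 1428 bases against 1446. The RNA and footprint counts stayed the same, so 0.931 and 1.08 differ through the lengths of these genes alone. The part of each length was not tested.

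**Figure D2:**
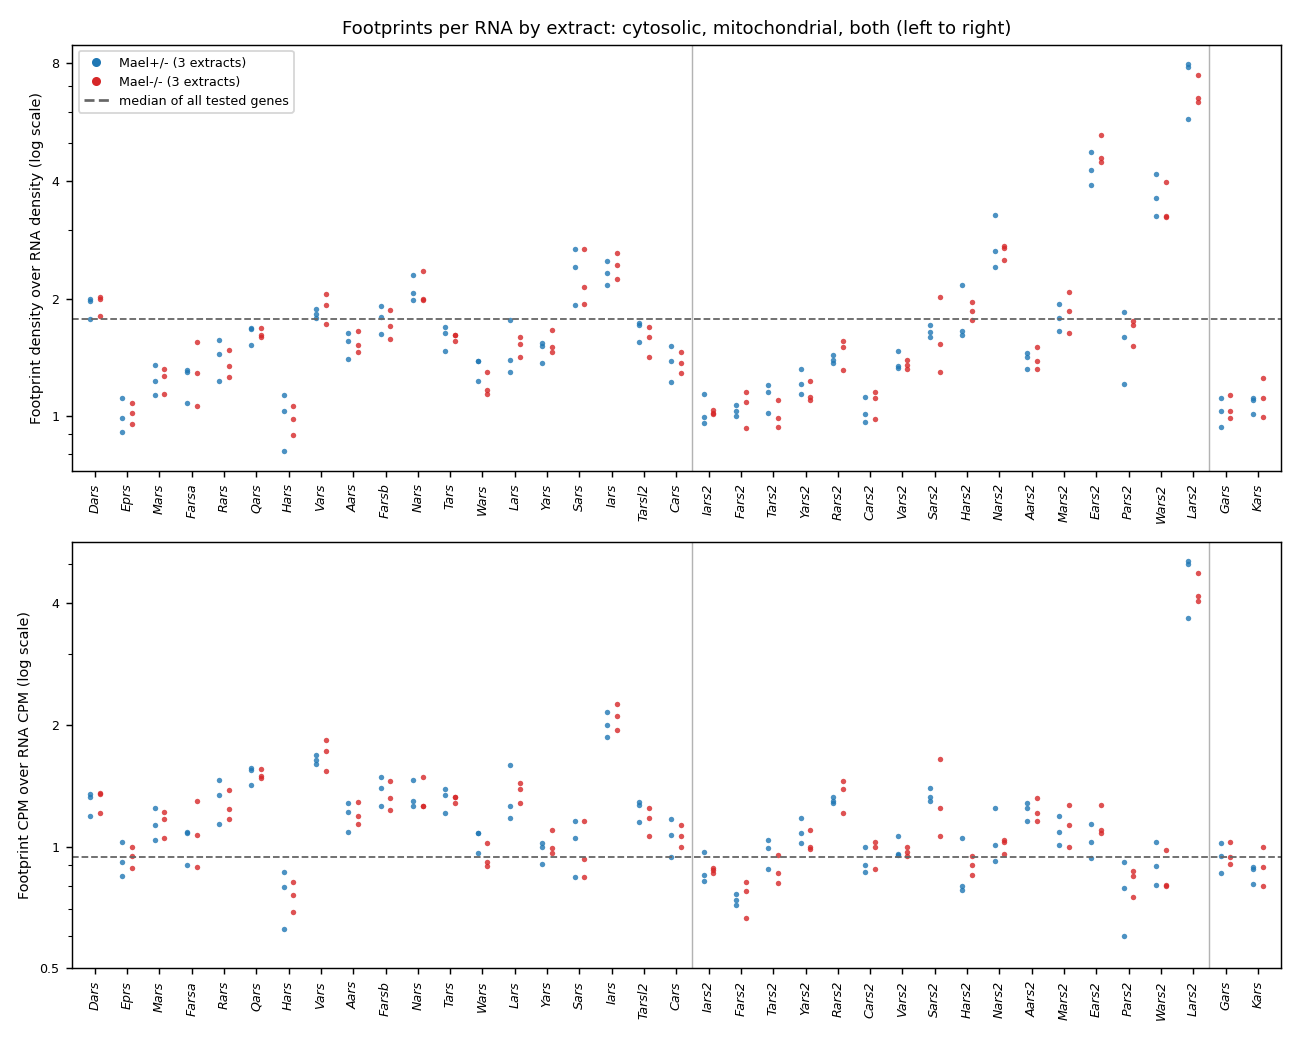
Footprints per RNA of the synthetase genes in each extract on log axes, with lengths taken into account (top) and without them (bottom). Each point is 1 extract, coloured by genotype, and the dashed line is the median of all tested genes. Lars2 lies above every other gene in both panels, while Ears2 and Wars2 are high only where lengths are used.

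Lars2 carried the most footprints for its RNA. Its ratio with lengths was 7.84, 5.75 and 7.96 in Mael+/- and 6.52, 7.45 and 6.35 in Mael-/- extracts. Without lengths it was 5.01, 3.68 and 5.09 against 4.17, 4.76 and 4.06, and its mean of 4.46 exceeded 99.0% of tested genes. All 6 extracts lay above those of any other synthetase gene on both scales, and the genotypes overlapped. Of the Lars2 mRNA, 9.39% matches other genomic loci at 95% identity or more, all of it outside the coding sequence.

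Ears2 followed with 4.27, 3.90 and 4.74 in Mael+/- and 4.47, 5.25 and 4.58 in Mael-/- extracts. Its annotated mRNA carries 4913 bases after the stop codon, and without lengths its mean ratio was 1.09. Wars2, with 3296 trailing bases, likewise had means of 3.58 with and 0.884 without lengths. The rank of these genes therefore rests on the annotated mRNA ends.

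The lowest ratios of mitochondrial genes were those of Iars2 and Fars2, whose mRNAs were the most abundant of that set. Iars2 had ratios with lengths of 1.14, 0.962 and 0.996 in Mael+/- and 1.02, 1.04 and 1.01 in Mael-/- extracts. Fars2 had ratios of 1.0, 1.03 and 1.07 against 1.15, 0.932 and 1.09. Among cytosolic genes, Hars, for histidine, was lowest with 1.13, 0.813 and 1.03 against 1.06, 0.986 and 0.896, and Eprs was next with 1.11, 0.913 and 0.987 against 1.08, 1.02 and 0.957. Of the cytosolic genes Iars was highest with 2.50, 2.17 and 2.32 against 2.25, 2.61 and 2.44. The part of the matching pseudogene in either readout of Iars was not tested. Sars, for serine, came next with 2.67, 1.93 and 2.41 against 2.67, 2.14 and 1.94, and fell to a mean of 0.998 without lengths. In none of these genes did the extracts of the genotypes separate.

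The bases around the start codon, where ribosomes begin to read, are shown for the highest and lowest genes of each compartment in this order and for Gars and Kars. Hars, the lowest of all, is not shown. They were read from RefSeq on GRCm38.p6, with the start codon in capitals, 10 bases before it and 7 after it.
Lars2, chr9:123371873-123371875, + strand: ctcctgaagaATGgcatcca
Ears2, chr7:122067041-122067043, - strand: tctagtccacATGgcggcgc
Iars, chr13:49687393-49687395, + strand: cagcaacagaATGgttcaac
Sars, chr3:108445130-108445132, - strand: aggtagaaggATGgtgctgg
Eprs, chr1:185363198-185363200, + strand: ctcctgggagATGgcggcgc
Iars2, chr1:185329285-185329287, - strand: ctcgtccaccATGcactggg
Fars2, chr13:36204530-36204532, + strand: agcttctataATGgtctgct
Gars, chr6:55038042-55038044, + strand: cggcgtgctcATGccctgtc
Kars, chr8:112008350-112008352, - strand: gtgttccgccATGttgatgc
The best known context of a start codon has a purine 3 bases before it and a G right after it. Of the 38 genes, 33 had A or G at the first of these places and 23 had G at the second. Both were present in 22 genes and neither in 4. The full context was present in Lars2, the highest gene, in the high cytosolic genes Iars and Sars, and in the low genes Eprs and Fars2. Ears2 had C at the first place and Iars2 had C at the second. A relation of these letters to footprints per RNA was not tested. Gars had neither in the transcript used, and both Gars and Kars are known to make their compartment forms from alternative starts or exons, so the context of their other form is not shown.

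The next comparison asked whether the synthetases differed between the genotypes. No synthetase gene was called in RNA, in footprints or in footprints per RNA. In RNA, edgeR called 0 of 38 genes at an adjusted p under 0.05, and it called 17 of 14685 genes in all (0.116%). At an unadjusted p under 0.05 it again held 0 of 38, against 5.4% of all genes tested. In footprints 0 of 38 genes were called, against 0.0593% of 13500 genes, and 0 of 38 had an unadjusted p under 0.05, against 4.33%. DESeq2 also called 0 of 38 in each assay and found 0 with an unadjusted p under 0.05. Without the Mael+/- libraries of replicate 1, edgeR again called 0 of 38 in each assay, and 1 gene had an unadjusted p under 0.05 in each, which in RNA was Qars.

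The estimates were small as well as uncalled. In RNA the median log2 fold change of Mael-/- over Mael+/- was 0.04 for cytosolic and 0.01 for mitochondrial genes, and single genes ran from -0.22 for Rars2 to 0.18 for Lars2 and Tarsl2. In footprints the medians were 0.01 and -0.03, with a range from -0.21 for Nars2 to 0.28 for Pars2. The 95% confidence interval lay within 0.5 of zero for 36 of 38 genes in RNA and 37 of 38 in footprints, and the widest bounds were 0.56 and 0.65. For comparison, 65.0% of all genes tested in RNA and 64.0% in footprints had an interval within 0.5 of zero.

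**Figure D3:**
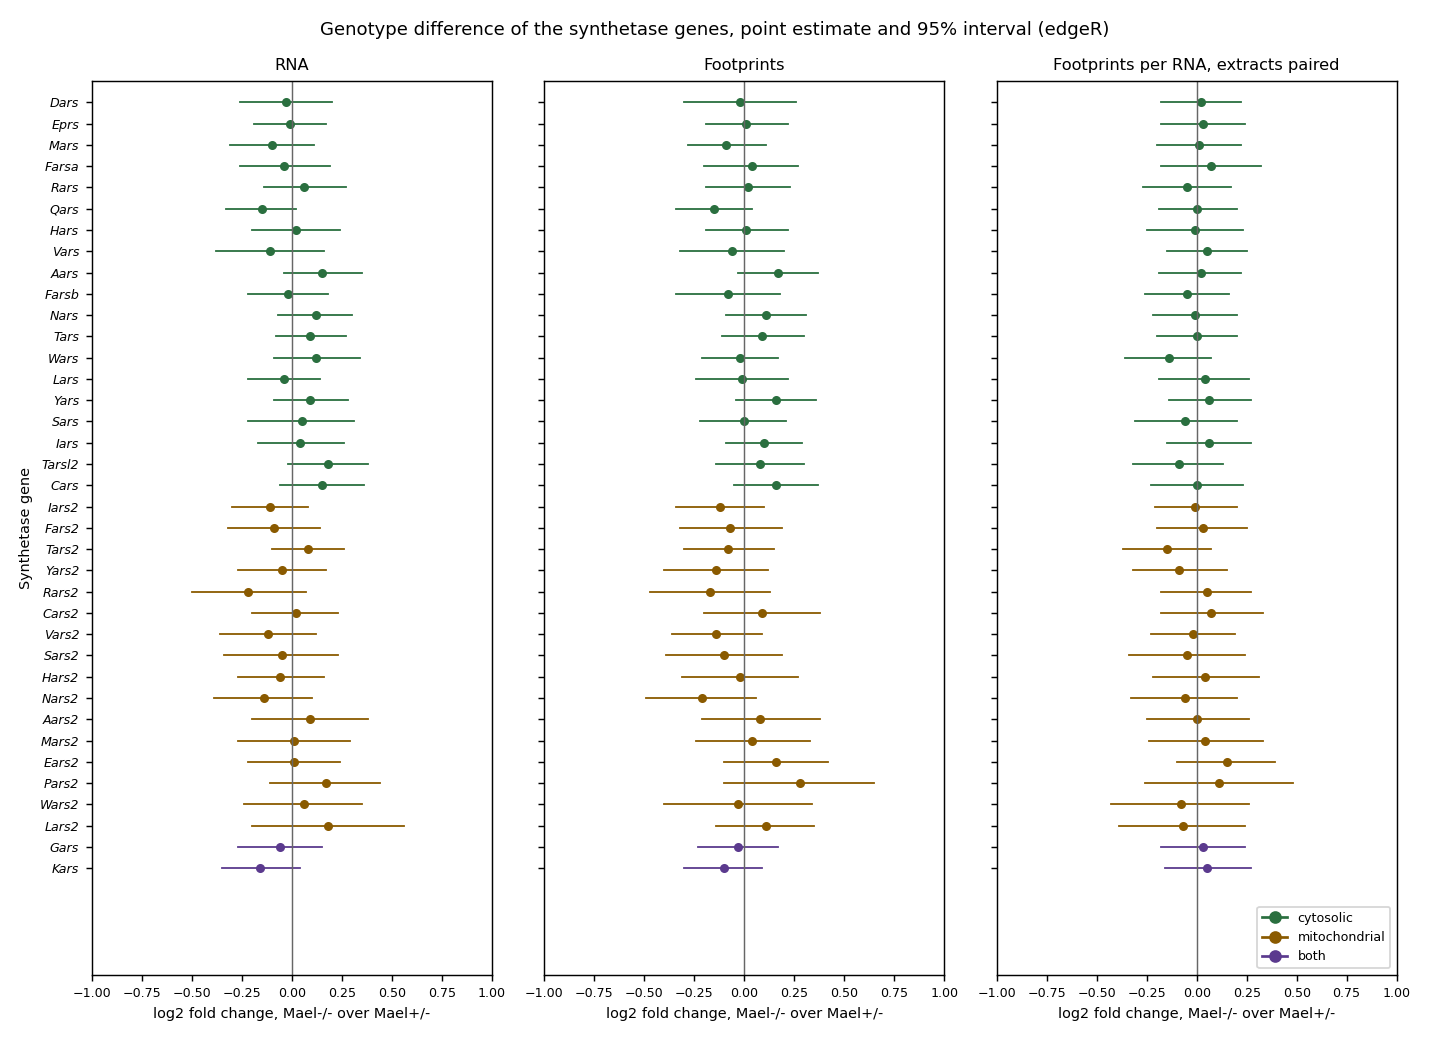
Log2 fold change of Mael-/- over Mael+/- testes for the synthetase genes in RNA, footprints and footprints per RNA with extracts paired. Points are edgeR estimates, bars are 95% confidence intervals, and colour marks the compartment. Every interval includes 0, and the largest estimate is 0.28 for footprints of Pars2.

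Members with a small p are named here after their values were seen. In RNA the smallest were those of Qars, whose estimate on the log2 scale was -0.15 ± 0.08 (SE, edgeR adjusted p = 0.944), and of Tarsl2, at 0.18 ± 0.09 (edgeR adjusted p = 0.944). In footprints Aars, which charges alanine, was at 0.17 ± 0.09 (SE, edgeR adjusted p = 0.998). Footprint densities of Aars were 63.2, 63.9 and 63.6 CPM per kilobase in Mael+/- and 76.7, 70.4 and 67.9 in Mael-/- libraries. Aars was higher in every Mael-/- library than in any Mael+/- library and did not pass the test.

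The libraries of the genotypes did not overlap for 9 of 38 genes in RNA, against 10.3% of all genes tested. In footprints they did not overlap for 8 of 38, against 9.1%. The shares of the synthetase genes, 23.7% and 21.1%, were above the background, and 6 genes were in both sets. Among these, Aars, Cars and Pars2 were higher in Mael-/- testes and Kars and Qars were lower. As RNA and footprints came from the same extracts, the second readout is not a separate sample of animals.

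Separate groups of synthetases gave small and unlike medians. The 8 genes of the multisynthetase complex had a median log2 fold change of -0.04 in RNA, with 6 lower and 2 higher in Mael-/- testes, while the 12 other cytosolic genes had 0.09, with 9 higher and 3 lower. In footprints the medians were -0.01 and 0.06. Class I and class II had medians of 0.01 and 0.02 in RNA. The 3 scaffold proteins of the complex, Aimp1, Aimp2 and Eef1e1, had RNA fold changes of -0.07, -0.08 and 0.05 and footprint fold changes of -0.01, 0.01 and -0.02 on the log2 scale, and 0 of 3 were called. The median of all genes tested was 0.00 in RNA and -0.01 in footprints.

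A change in footprints beyond that in RNA was tested as the interaction of genotype and assay over 12 libraries. edgeR called 0 of 38 synthetase genes and 0 of 13448 genes in all (0%). At an unadjusted p under 0.05 it held 0 of 38, against 0.394% of all genes. With each extract as a block, which pairs RNA and footprints, the calls were again 0 of 38 and 0% of all genes, and an unadjusted p under 0.05 was held by 0 of 38, against 2.1%. DESeq2 called 0 genes in all, and 47 had an unadjusted p under 0.05, none of them a synthetase. With extracts paired, the interval lay within 0.5 of zero for all 38 genes, and the median log2 difference was 0.00 for cytosolic and for mitochondrial genes. The estimates ran from -0.15 for Tars2 to 0.15 for Ears2. For Wars, which interferon induces in many cell types, the paired estimate was -0.14 ± 0.10 (SE, edgeR adjusted p = 1.0), with RNA at 0.12 and footprints at -0.02.

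The targets of ATF4 among the synthetases were set beside other targets of that factor. The 12 synthetases known to rise with ATF4 in other tissues, which are Aars, Cars, Eprs, Gars, Iars, Lars, Mars, Nars, Sars, Tars, Wars and Yars, had a median log2 fold change of 0.07 in RNA and 0.05 in footprints, with 8 and 7 of 12 higher in Mael-/- testes. None had an unadjusted p under 0.05 in edgeR. Of 24 ATF4 targets outside the synthetases, 16 were higher in Mael-/- testes in RNA, with a median log2 fold change of 0.10. edgeR called 0 of them, and 3 of 24 had an unadjusted p under 0.05, against 5.4% of all genes. These were Chac1, a glutathione-degrading enzyme, at 1.56 ± 0.36, the stress transcription factor Ddit3 at 0.36 ± 0.12, and Cth, of cysteine synthesis, at 0.62 ± 0.25 (SE, log2, edgeR adjusted p = 0.453, 0.846 and 0.901). In footprints 22 were tested, of which 15 were higher, with a median of 0.13. edgeR called 0 of them, and 3 of 22 had an unadjusted p under 0.05, against 4.33% of all genes. These were Ddit3 at 0.39 ± 0.15, the ATF4 inhibitor Trib3 at 0.57 ± 0.23 and Sesn2, a sensor of leucine, at 0.28 ± 0.12 (SE, log2, edgeR adjusted p = 0.998 each). In the paired interaction 1 of 22, the secreted glycoprotein gene Stc2, had an unadjusted p under 0.05, at 0.37 ± 0.16 (SE, log2, edgeR adjusted p = 1.0). Exons of Mars share 68 bases with those of Ddit3 on the opposite strand.

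The list of ATF4 targets moved with the replicate 1 extract as well. Its median deviation in RNA was 0.24 below the 6-library mean in the Mael+/- library of replicate 1 and between 0.03 below and 0.12 above it in the other 5 libraries. The part of that library in the fold changes of these genes was not tested. The cytosolic synthetases deviated in the same library by 0.08 downward in RNA and by 0.00 in footprints.

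**Figure D4:**
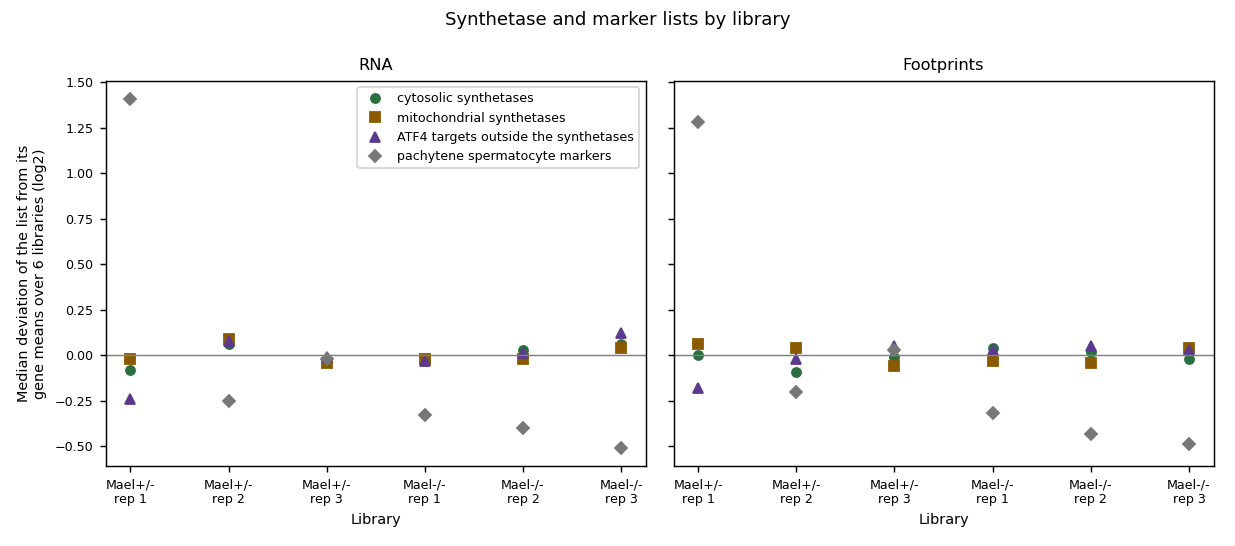
Median deviation of 4 gene lists from their gene means over 6 libraries, on the log2 scale, in each RNA (left) and footprint (right) library. Synthetase medians stay between -0.09 and 0.09 in every library, while the pachytene markers reach 1.41 in RNA and 1.28 in footprints in the Mael+/- library of replicate 1.

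Promoters of the synthetase genes were searched for the letters of the C/EBP-ATF response element, to which ATF4 binds, because the ATF4 list holds many of these genes. The search used TGATGNAA on either strand, where N is any base, from 250 bases before to 50 bases after each RefSeq start site. Of 28 synthetase genes with a promoter sequence, 5 held a match (17.9%), and of 27025 genes with one, 1219 did (4.51%). A match is a description of these letters and not a binding site. A match of each gene is shown with 11 bases on either side (GRCm38.p6, RefSeq), written 5′ to 3′ on the strand of the gene with the match in capitals. Where the capitals read TTNCATCA, the match is on the other strand.
Aars, chr8:111033840-111033869: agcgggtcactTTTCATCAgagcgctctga
Gars, chr6:55037960-55037989: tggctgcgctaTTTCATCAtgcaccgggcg
Iars, chr13:49682126-49682155: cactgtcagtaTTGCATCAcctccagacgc
Tars, chr15:11399655-11399684: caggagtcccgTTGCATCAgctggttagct
Yars, chr4:129189895-129189924: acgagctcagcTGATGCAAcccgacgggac
All 5 genes encode cytosolic or shared enzymes and all 5 belong to the list of 12 synthetases that rise with ATF4 in other tissues. No promoter sequence was available for 10 synthetase genes, among them Cars, Lars, Nars and Wars of that list. Genes without a sequence were not searched, so they cannot be counted as lacking a match. The first base of the match shown lay at 10 in Aars, -30 in Gars, 8 in Iars, -15 in Tars and 4 in Yars, counted from the start site as base 1, so each lay within 30 bases of it. In RNA these genes had log2 fold changes of 0.15, -0.06, 0.04, 0.09 and 0.09 in the order of the sequences, and in footprints 0.17, -0.03, 0.10, 0.09 and 0.16. Gars was the lowest of them on both scales, and no fold change of the 5 passed a test.

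Related charging genes were not called either. Of the selenocysteine genes Sepsecs, Pstk, Secisbp2 and Eefsec, edgeR called 0 of 4, and the RNA fold changes were -0.14, 0.06, 0.01 and -0.06 on the log2 scale. Sepsecs, which forms selenocysteine on its tRNA, had the lowest footprint estimate, -0.23 ± 0.14 (SE, edgeR adjusted p = 0.998). Of the genes that edit mischarged tRNA or add its CCA end, Aarsd1, Dtd1, Dtd2, Prorsd1 and Trnt1, 0 of 5 were called, and RNA ran from -0.04 for Aarsd1 to 0.20 ± 0.10 for Dtd2 (SE, edgeR adjusted p = 0.939). Of the 4 amidotransferase and formyltransferase genes 0 were called, with RNA between -0.14 for Gatc and 0.00 for Mtfmt. In footprints 0 of these 13 genes were called, and in footprints per RNA 0 of 13, with 0 at an unadjusted p under 0.05 in edgeR in any of these contrasts.

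The meiotic markers had larger estimates than the synthetases. Of 11 pachytene markers tested in RNA, all 11 had a negative estimate, with a median log2 fold change of -1.08, and edgeR called 0 while 6 had an unadjusted p under 0.05. These were Adam2, Clgn, Hspa2, Ldhc, Piwil1 and Spata16. The median of 7 early meiotic genes was -0.31, that of 8 spermatogonial genes -0.06, of 9 Sertoli genes 0.00, of 6 Leydig genes 0.02, of 3 peritubular genes 0.20 and of 5 macrophage genes 0.35, with 0 called in each and an unadjusted p under 0.05 for Spo11, Insl3 and C1qa alone. In summed RNA the pachytene list of 12 genes held 1030 CPM in the Mael+/- library of replicate 1 and 324 to 397 in the other 5 libraries, where the synthetase medians showed no such step.

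The coefficient of variation of the synthetase levels over 6 libraries had a median of 7.67% in RNA, against 11.1% for all genes tested, and of 7.82% in footprints, against 11.6%. In RNA the cytosolic and mitochondrial medians were 7.54% and 7.75%, and in footprints they were 6.26% and 10.1%, the latter near that of all genes. It was highest for Rars2 in RNA, at 14.6%, where the Mael+/- library of replicate 1 held 27.1 CPM per kilobase and the other 5 held 18.6 to 20.4. Steadier genes included the mitochondrial Cars2, at 3.19%, and Tars2, at 3.42%. The synthetases were also more abundant than the median gene, and the part of depth in this difference was not tested. The extreme values were unevenly spread over the libraries. In RNA the Mael+/- library of replicate 2 held the highest value of 16 of 38 genes, and the replicate 1 libraries of Mael+/- and Mael-/- testes held the lowest of 11 and 12. In footprints the Mael+/- library of replicate 2 held the lowest value of 17 of 38 genes, 12 of them cytosolic.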

How the data were processed

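The authors sequenced stranded, ribosomal-RNA-depleted total RNA and micrococcal-nuclease footprints from aliquots of the same extracts, clipped the footprint linker and its random bases, removed ribosomal reads with Bowtie 1.2.2, aligned to mm10 with STAR 2.6.0c and counted with featureCounts (Subread 1.6.4), taking the full mRNA for RNA libraries but only coding sequence for footprint libraries. Whether duplicates were collapsed, and the strand setting and annotation of the counting, are not given in the sources used here. The deposited table holds raw counts per gene, which were used as deposited. Rows of repeat copies were not used here. The authors' DESeq2 tables of log2 fold changes and p-values were not used. The totals per library given in the report set the precision, and intervals cover the spread between these 3 biological replicates a group.

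All 20620 gene rows entered each fit, with edgeR 4.0.16 in R 4.3.3 (TMM within each assay, default expression filter, quasi-likelihood F-test, Benjamini-Hochberg adjustment over all genes tested, called at an adjusted p under 0.05). DESeq2 1.42.0, other size factors, other filters, a replicate block and leaving out each library were alternatives. Tests were run on simulated data first. RNA and footprints were paired because the methods take them from the same extracts. The labels do not name the extract, so libraries were matched by genotype and replicate number. Deviations from the group mean correlated in all 6 extracts so matched, over 12181 genes. The correlations were 0.655 to 0.799 in Mael+/- and 0.257 to 0.271 in Mael-/- extracts. Lengths came from the RefSeq transcript with the longest coding sequence on GRCm38.p6, the assembly that mm10 names. Similar loci were found with blastn 2.17.0 at 95% identity over 100 bases. The members and gene lists were chosen with earlier results of these data known. Values in every library are given for the highest and lowest members of each compartment and for Eprs, Farsa, Farsb, Gars, Kars, Qars, Wars, Tars, Tarsl2 and Tars2, and others by counts and ranges. A member of the set and a promoter match are not reported here by name, and the plots leave that member out, while counts and medians over the set include it.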

Additional observations from a re-analysis of the deposited data

How the results depend on the processing

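No synthetase gene was called under any alternative in RNA, footprints or footprints per RNA, and their counts at an unadjusted p under 0.05 stayed at 0 except when a library was left out: Qars in RNA without Mael+/- replicate 1 (adjusted p = 0.771) and Aars in RNA without Mael+/- replicate 2 (adjusted p = 0.752, edgeR in each), and 1 gene in footprints without Mael+/- replicate 1. When each library was left out in turn, the median log2 fold changes ran from 0.00 to 0.09 for cytosolic and -0.05 to 0.02 for mitochondrial genes in RNA, and from -0.02 to 0.06 and -0.07 to 0.00 in footprints. In footprints per RNA with extracts paired they ran from -0.05 to 0.05 and -0.03 to 0.03, a fit with libraries left out that was added after the data were seen. The cytosolic over mitochondrial ratio of footprints per RNA was 1.24 without lengths and 0.931 with the longest transcript, against 1.08, since the lengths alone differ. Over all genes, RNA calls were 17 with edgeR, 66 with DESeq2, 50 with a replicate block and 4 at a mean of at least 50 counts, and footprint calls were 8, 26, 23 and 1. Libraries of the genotypes with the same replicate number were not treated as pairs in the main fits. Their deviations correlated over genes at 0.267, -0.0131 and 0.188 in RNA and at 0.0762, 0.252 and 0.0619 in footprints. The highest of these were near those between RNA and footprints of Mael-/- extracts, so they do not settle whether the numbers pair the genotypes. With the replicate block the synthetase calls were 0 in RNA and 0 in footprints. The block changed no call of a synthetase gene. The widest interval bounds were those of Lars2 in RNA (0.56) and Pars2 in footprints (0.65), with lowest counts of 116 and 71.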
